A study of Mus musculus with 3 samples.

Results

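The comparison described here sets the resolution phase of an inhaled lipopolysaccharide injury, 24 h, against the 0 h time point in macrophages sorted from mouse lung. It takes every gene in the authors' table of 0 h and 24 h, which lists 12618 of the 12880 genes found in any of the study's 3 tables. For each gene the 24 h signal was divided by the 0 h signal after 1 was added to both, and a gene was counted as higher or lower when that plain ratio was at least 2-fold. The animals were LysM-GFP mice on the C57BL/6 background, aged 6 to 8 weeks, whose green fluorescent reporter is driven from the lysozyme M locus of myeloid cells. All were treated by nebulization with lipopolysaccharide (LPS) in saline at 1 mg/ml, according to a treatment text that is the same for the 0 h sample, so it is not known whether the 0 h animals were untreated. Lungs were digested for 50 min at 37 degrees, and cells positive for GFP and for CD64 and negative for Ly6g were sorted, with 1 library at each time. The tables' column headings name CD11b beside GFP, and the sort as described does not mention CD11b, so whether the cells were also gated on it is not settled. Nothing in the labels says how many animals went into a library. With 1 library per side no difference below has a replicate check, no test was run, and "higher" and "lower" describe the libraries.

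Macrophages sense LPS through the receptor TLR4, which signals through MYD88 to the NF-kappaB and AP-1 transcription factors and through TRIF to the interferon regulatory factors. The first branch switches on cytokines, chemokines and its own inhibitors within hours, and the second drives interferon-beta and the genes that interferon induces. In the lung, resident alveolar macrophages clear surfactant and debris, and blood monocytes that enter during injury can take on macrophage features while the tissue recovers.

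The table holds signal values, each the number of reads of a gene over a size factor of its library. Its first signal column is headed as 4 h, but the reads in it are those of the 0 h library in another table for 12310 of the 12310 genes in both, against 58 for the 4 h library, so it was taken as 0 h. Whole reads behind them came to 24827998 at 0 h and 25133759 at 24 h. Fold ranges in parentheses are exact 95% Clopper-Pearson intervals on those reads, without the added 1, and since the reads carry no molecular identifiers they cover counting error only. Levels at 4 h come from another table and were set across tables through the 0 h library that both share. Fcgr1, which encodes the sorting antigen CD64, stood at 2819 at 0 h, 8086 at 4 h and 3308 at 24 h. Itgam, encoding CD11b, stood at 8227, 37342 and 8464. Both differed by less than 1.5-fold between 0 h and 24 h, as did the macrophage genes Csf1r (34083 and 34009), Cd68 (24203 and 20348) and Emr1, encoding F4/80 (13634 and 9948). Lyz2, the reporter locus, had only 43 and 21 reads at 0 h and 24 h, beside levels of 21369 and 17556 for its near-identical neighbour Lyz1. How the counting split reads between these copies was not tested, so both values are uncertain. Ly6g had no row. The libraries also differed in sex-linked transcripts. Xist, which coats the silenced X chromosome, gave 13705 reads at 0 h and 1 at 24 h, whereas Ddx3y had 4 and 2357 and Eif2s3y 2 and 2925, so the sex of the animals and the time point cannot be told apart. In sorted bulk samples fewer cells of a type and less RNA per cell cannot be told apart either.

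Of the 12618 genes, 663 (5.25%) were at least 2-fold higher at 24 h than at 0 h and 1077 (8.54%) at least 2-fold lower. The remaining 10878 lay within 2-fold, and 8500 of them, 67.4% of all genes, within 1.5-fold. The median log2 ratio was 0.02, with 5th and 95th percentiles of -1.32 and 1.02. The lower side reached further, with 209 genes lower and 85 higher past 4-fold and 44 lower and 18 higher past 8-fold. Among the 956 genes with a mean signal of at least 5000 the split was 107 lower and 15 higher. The genes past 2-fold downward lost 2086554 units of signal between them, and those past it upward gained 333237. This split depends on scaling. Scaling to the library total added 0.16 to every log2 ratio and gave 937 higher and 847 lower, edgeR's trimmed mean of M-values (TMM) added 0.002 and gave 666 and 1074, and centring on the ribosomal protein genes took off 0.60 and gave 203 and 3196. A direction given below for a list of genes turns under one of these where the text says so.

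**Figure D1:**
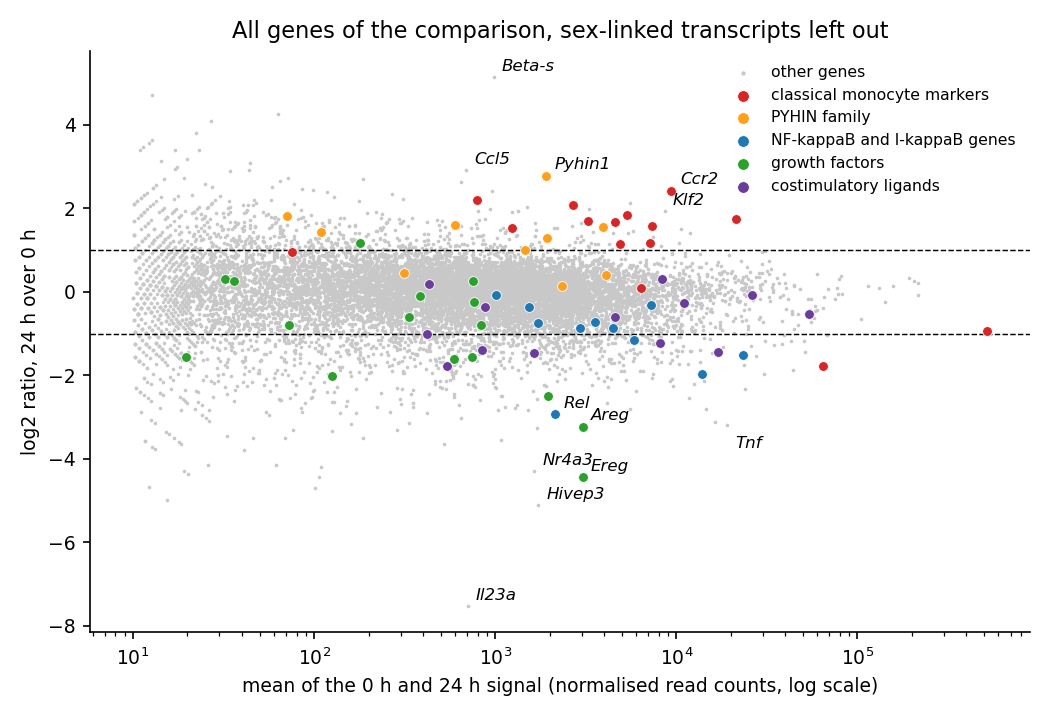
Each point is 1 gene, placed by the mean of its 0 h and 24 h signal on a log axis and by its log2 ratio of 24 h over 0 h. Dashed lines mark 2-fold, and coloured points are members of 5 gene lists. The NF-kappaB and I-kappaB genes all lie below 0 and the PYHIN genes all above it, and Il23a lies lowest of the genes shown.

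Apart from Xist, the lowest ratio was that of a cytokine gene. Il23a, which encodes the p19 subunit of interleukin-23 (chromosome 10, 128296140 to 128298084, mm10), stood at 1401 at 0 h, 606 at 4 h and 6.59 at 24 h, 185-fold (103 to 529) lower at 24 h than at 0 h. Hivep3, a large zinc finger protein that binds kappaB-like sites (chromosome 4, 119814678 to 120135411), stood at 3365, 3856 and 96.1 and was 34.7-fold (28.8 to 43.1) lower. These genes had not declined together at 4 h, since Hivep3 was no lower at 4 h than at 0 h and Il23a was. Ereg, encoding the EGF receptor ligand epiregulin (chromosome 5, 91074617 to 91093649), went from 5808 at 0 h through 657 to 267, 21.7-fold (19.3 to 24.6) lower. Nr4a3, an immediate early nuclear receptor (chromosome 4, 48045305 to 48056739), stood at 3121, 2064 and 158, 19.6-fold (16.9 to 23.2) lower.

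Other genes among the 15 lowest included Hipk2, a nuclear kinase of the stress response, at 1972, 1865 and 169 (11.6-fold lower), and Hr, a corepressor of nuclear receptors, at 3088, 149 and 319 (9.64-fold lower). Hr was already low at 4 h while Hipk2 was not. Eid3 (26-fold lower, 14.2 to 75.1, from 196 to 6.59), Fam71f2 (21.6-fold lower, 12.4 to 53.4, from 204 to 8.48) and Efr3b (18.4-fold lower, 11 to 40.9, from 208 to 10.4) rested on few reads at 24 h, 7, 9 and 11. The set was completed by Ppp1r12b, a regulatory subunit of myosin phosphatase (12.4-fold lower), Vasn, encoding vasorin (11.4-fold lower), and Btnl6, a butyrophilin-like gene (9.03-fold lower), together with Il10, Areg and Tnf, which are described with their groups.

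Genes with a mean of at least 5000 were also among those far lower. Nlrp3, the sensor of the NLRP3 inflammasome, stood at 20126 at 0 h, 34691 at 4 h and 3421 at 24 h, 5.88-fold (5.68 to 6.1) lower. It was highest at 4 h. Nlrp3 was the only member past 2-fold of the 14 inflammasome and pyroptosis genes, and their median log2 ratio was -0.09, which turned to 0.06 when scaled to the library total. Siglec1, encoding the sialic acid receptor CD169, stood at 15101, 4807 and 3423 (4.41-fold lower, 4.25 to 4.58). Rasgef1b, an LPS-inducible guanine exchange factor, stood at 15901, 5068 and 3332 (4.77-fold lower). Rab11fip1, an effector of recycling endosomes, was 5.21-fold lower, from 10077 to 1934. Ccrl2, an atypical receptor that presents chemerin, stood at 20554, 18574 and 4413 (4.66-fold lower).

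All 11 measured genes of the NF-kappaB and I-kappaB families had a log2 ratio below 0, with 4 at least 2-fold lower and a median of -0.86 beside 0.02 over all genes. The subunits were not alike. Rel, which encodes c-Rel, stood at 3808 at 0 h, 6918 at 4 h and 496 at 24 h, 7.66-fold (7.0 to 8.42) lower, whereas Rela, encoding p65, stood at 4446, 5939.8 and 2687 with a log2 ratio of -0.73. For Relb the log2 ratio was -0.38, for Nfkb1 -0.31 and for Nfkb2 -0.86. Among the inhibitors, Nfkbiz, encoding the nuclear I-kappaB-zeta, stood at 22169.7, 38125 and 5626 (3.94-fold lower, 3.83 to 4.06). Nfkbia, encoding I-kappaB-alpha, stood at 34769, 50888 and 12117 (2.87-fold lower, 2.81 to 2.93). Nfkbid was the other member past 2-fold (2.22-fold lower), and Bcl3, a nuclear I-kappaB, differed least, at 1033 and 984. At 4 h 10 of the 11 genes, Rel, Nfkbiz and Nfkbia among them, were above both other times, beside 38.1% of all genes, and Nfkbid lay between. Centring on genes of like exonic length left the median at -0.94.

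Some regulators that end the response were lower as well. Tnfaip3, which encodes the deubiquitinase A20 (chromosome 10, 19000910 to 19011963), stood at 39856, 54770.0 and 7922, 5.03-fold (4.91 to 5.15) lower. Zc3h12a, encoding the ribonuclease Regnase-1 that cuts cytokine messages, stood at 9225, 14389 and 3413 (2.7-fold lower), and Zc3h12c was 2.54-fold lower. In this list of 14 feedback and mRNA decay genes 3 were at least 2-fold lower, none was 2-fold higher and the median was -0.36. Of 13 listed ubiquitin ligases and adaptors of receptor signalling 2 were past 2-fold, both lower, where 8.54% of all genes were lower. After length centring 1 was at least 2-fold lower. Cbl, an E3 ligase that down-regulates activated receptors, stood at 3735, 7854 and 493 (7.56-fold lower, 6.9 to 8.31), and Traf1, which encodes an adaptor of TNF receptors, was 2.31-fold lower.

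Immediate early genes past 2-fold were mostly lower, with 4 of 11 EGR, NR4A and IER family genes at least 2-fold lower, 1 higher and a median of -0.36. Egr1, which encodes a growth-induced zinc finger factor, stood at 36583 at 0 h, 23578 at 4 h and 10775 at 24 h, 3.39-fold (3.32 to 3.47) lower. Egr3 was 6.23-fold lower, from 217 to 33.9. The member that was higher, Ier5l of the IER family, stood at only 18.1 and 55.6. Of the 13 AP-1, ATF and MAF genes 4 were at least 2-fold lower and 1 higher, with a median of -0.32. Maff, a small MAF protein, stood at 5743, 3407 and 1488 (3.86-fold lower, 3.65 to 4.08). Fosb, a FOS family member, stood at 43033, 13241 and 19045 (2.26-fold lower), and Fosl1, another, had 73 reads at 0 h and 5 at 24 h (13.8-fold lower, 6.74 to 52.2). The AP-1 family member above 2-fold was Batf3, a factor of dendritic cells, at 254, 472 and 596.

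Of 13 MAP kinase phosphatases, which switch off the kinases upstream of AP-1, 10 lay within 2-fold. At least 2-fold higher was 1 and lower were 2, near the 5.25% and 8.54% of all genes. Their median of -0.10 turned to 0.06 when scaled to the library total. Dusp6, which acts on ERK, stood at 2325, 1799.8 and 5108 and was 2.2-fold (2.09 to 2.31) higher. Dusp8 (3.99-fold lower, 2.71 to 6.36, from 116 to 28.3) was low throughout, and Dusp14 had only 33 reads at 0 h and 2 at 24 h. Among 20 Toll-like receptors and adaptors, 3 were at least 2-fold lower and 1 higher, beside 8.54% and 5.25% of all genes, with a median of -0.40. Tlr2, the receptor for bacterial lipoproteins, stood at 49144, 56054 and 20301 (2.42-fold lower, 2.38 to 2.46). Tlr8, an endosomal receptor, was 3.06-fold lower, and Tlr5, the flagellin receptor, 4.43-fold lower. Tlr1 went the other way, from 264 to 589 (2.22-fold higher), although its protein pairs with that of Tlr2. Tlr4 itself stood at 2555, 3188 and 1888, within 2-fold.

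Short promoter stretches of some genes named above and below are shown as examples. Each gene was paired with a motif by hand and its promoter holds that motif, so the matches do not show how common it is. The sequences are RefSeq promoters of GRCm38.p6, written 5′ to 3′ on the strand of the gene, from 250 bases before the annotated start to the base before it. Capitals mark the matches named here, the shorter TGACGT lies within the longer TGACGTCA, and a position is that of the first base of a match counted back from the start. Nr4a3 (chr4:48045055-48045304, plus strand) has TGACGT, the core of the cyclic AMP response element, at -231, -205 and -147. Areg (chr5:91139349-91139598, plus strand) has the full element TGACGTCA at -61 in capitals, with a TATAAA at -31 left in lower case. Rel (chr11:23770970-23771219, minus strand) has 1 match to the kappaB motif, GGG and TTCC with any 3 bases between them, at -91, read on the other strand. Cxcl1 (chr5:90890995-90891244, plus strand) has 3, those at -89 and -70 read on the other strand and that at -71, which overlaps the one at -70, on the strand of the gene. Cxcl10 (chr5:92348890-92349139, minus strand) has 2, at -159 and -104. BC147527 (chr13:120300142-120300391, plus strand), a gene that was higher at 24 h, has the interferon-response motif, GAAA and GAAA with any 2 bases between them, at -110. Matches left in lower case are TGACGT at -105 in Rel and at -195 in Cxcl1, and, in Cxcl10, the interferon-response motif at -213 and the AP-1 motif TGANTCA at -74. The interferon-response motif thus occurs in the promoter of Cxcl10, which was lower at 24 h, as well.
Nr4a3: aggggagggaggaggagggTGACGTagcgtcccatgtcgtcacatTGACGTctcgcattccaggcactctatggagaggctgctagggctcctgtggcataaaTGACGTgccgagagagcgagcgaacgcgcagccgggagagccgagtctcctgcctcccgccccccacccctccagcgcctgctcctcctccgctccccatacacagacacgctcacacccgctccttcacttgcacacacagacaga
Areg: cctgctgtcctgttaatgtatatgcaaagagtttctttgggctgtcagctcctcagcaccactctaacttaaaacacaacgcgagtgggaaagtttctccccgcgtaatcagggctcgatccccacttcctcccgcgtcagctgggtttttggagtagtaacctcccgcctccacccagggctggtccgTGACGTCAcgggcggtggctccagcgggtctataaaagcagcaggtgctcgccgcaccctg
Rel: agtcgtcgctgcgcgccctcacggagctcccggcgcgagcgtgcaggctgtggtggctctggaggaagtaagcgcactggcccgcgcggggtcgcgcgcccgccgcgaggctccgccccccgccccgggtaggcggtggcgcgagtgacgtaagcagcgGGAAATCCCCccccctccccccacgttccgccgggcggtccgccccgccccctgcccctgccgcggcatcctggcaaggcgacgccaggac
Cxcl1: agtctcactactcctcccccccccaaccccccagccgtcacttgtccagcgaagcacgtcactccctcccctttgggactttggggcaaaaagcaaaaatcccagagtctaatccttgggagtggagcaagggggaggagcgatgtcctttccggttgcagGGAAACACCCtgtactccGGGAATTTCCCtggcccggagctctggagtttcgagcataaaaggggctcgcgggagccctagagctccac
Cxcl10: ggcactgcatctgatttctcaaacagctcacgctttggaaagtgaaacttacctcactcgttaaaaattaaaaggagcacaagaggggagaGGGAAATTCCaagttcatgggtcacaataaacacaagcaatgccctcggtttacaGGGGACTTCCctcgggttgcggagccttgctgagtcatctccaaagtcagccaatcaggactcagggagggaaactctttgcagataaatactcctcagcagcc
BC147527: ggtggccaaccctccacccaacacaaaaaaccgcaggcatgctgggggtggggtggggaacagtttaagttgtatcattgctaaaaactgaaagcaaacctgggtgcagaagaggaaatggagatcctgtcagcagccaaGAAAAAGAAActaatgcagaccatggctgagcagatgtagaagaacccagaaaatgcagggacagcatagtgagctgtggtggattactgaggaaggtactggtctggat

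Such matches were counted on both strands in 300-base promoter windows reaching 50 bases past the start. Shares are given for the 161 promoters of 135 genes at least 4-fold lower at 24 h, then for the 60 promoters of 52 genes at least 4-fold higher, then for the 11328 promoters of all genes compared and last for all 32851 promoters. The kappaB motif was in 10.6%, 5.0%, 6.44% and 5.56%, the interferon-response motif in 3.11%, 8.33%, 3.16% and 3.44% and the AP-1 motif TGANTCA in 10.6%, 6.67%, 5.33% and 7.81%. TGACGTCA, which contains TGACGT, was in 3.73%, 0.0%, 3.0% and 1.79%, and TGACGT in 13%, 3.33%, 11.3% and 7.51%, so for both the lower genes were close to all genes compared. The E-box CACGTG was in 7.45%, 3.33%, 9.83% and 7.15%, and TATAAA in 15.5%, 18.3%, 7.31% and 13.6%. These shares rest on few promoters, 17 and 3 for the kappaB motif and 5 and 5 for the interferon-response motif among the genes at least 4-fold lower and higher. Among genes at least 2-fold lower and higher the kappaB shares came in the other order, 7.34% and 9.38%. A match is a description of letters and does not show that a factor bound there.

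Most pro-inflammatory cytokines past 2-fold were lower. Of 20 measured, 8 were at least 2-fold lower and 1 was higher, with a median of -0.65. Tnf, encoding tumour necrosis factor (chromosome 17, 35199367 to 35202007), stood at 34173 at 0 h, 11633 at 4 h and 3748 at 24 h, 9.11-fold (8.82 to 9.42) lower. Il1a, encoding interleukin-1 alpha, stood at 25506, 39694 and 3626 (7.03-fold lower, 6.8 to 7.28). Il1b, encoding the other interleukin-1, was abundant but within 2-fold, at 68152, 310381 and 62978, a log2 ratio of -0.11. Il6 stood at 7098, 22371 and 1662 (4.27-fold lower). Csf3, the granulocyte growth factor, had 58 reads at 0 h and 5 at 24 h (11-fold lower, 5.29 to 41.8). The member that was higher was Ltb, encoding lymphotoxin-beta, at 118, 130.5 and 397 (3.35-fold higher, 2.73 to 4.19).

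A few anti-inflammatory mediators were lower as well. Il10 stood at 228, 294 and 21.7, 10.1-fold (6.84 to 17) lower. Il1rn, encoding the interleukin-1 receptor antagonist, stood at 17711, 43902 and 5359.7, 3.3-fold (3.21 to 3.41) lower. Tgfb2 was 5.7-fold lower, from 166 to 28.3. These were the 3 members past 2-fold of 12, where 8.54% of all genes were lower. Tgfb1 stood at 11410.3 and 9734. In the list 11 genes had a ratio below 0, with a median of -0.46.

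Of 8 chemokines that attract neutrophils 3 were at least 2-fold lower and 2 higher. These counts became 4 and 0 after length centring, 4 and 0 under ribosomal centring and 2 and 2 when scaled to the library total. Cxcl1 (chromosome 5, 90891245 to 90893115) stood at 9729, 5599 and 1383, 7.03-fold (6.66 to 7.44) lower, and Cxcl2 at 40699.5, 44119 and 14035, 2.9-fold (2.85 to 2.96) lower. Ccl3 was 2.14-fold lower. The 2 members that were higher were Pf4, at 212, 95 and 459.6, and Ppbp, with only 7 and 20 reads at 0 h and 24 h, both of which are also known from platelets. Of 17 chemokines for monocytes and lymphocytes 2 were lower, 1 was higher and the median was -0.37. Ccl5, encoding RANTES (chromosome 11, 83525779 to 83530518), stood at 161, 6886 and 1219, 7.51-fold (6.38 to 8.99) higher. Cxcl10, an interferon-induced ligand of CXCR3, stood at 3563, 26729 and 814, 4.38-fold (4.06 to 4.72) lower. Both peaked at 4 h, but Ccl5 at 24 h was above its 0 h level and Cxcl10 below it. Cx3cl1, the membrane-bound fractalkine, was 2.72-fold lower.

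Growth factors were among the groups with the lowest median, -0.79 over 16 members, with 7 at least 2-fold lower and 1 higher. Areg, encoding the EGF receptor ligand amphiregulin (chromosome 5, 91139599 to 91148432), lies beside Ereg on chromosome 5 and went with it, from 5509.8 at 0 h through 841 at 4 h to 587 at 24 h, 9.38-fold (8.64 to 10.2) lower. Gdf15, a stress-induced TGF-beta relative, stood at 3311, 199 and 583, 5.67-fold (5.21 to 6.2) lower. In Ereg, Areg and Gdf15 the 4 h level was already far below the 0 h level. Inhba, encoding activin A, behaved otherwise, at 189 reads at 0 h, a level of 3499 at 4 h and 52 reads at 24 h. Igf1 (3.07-fold lower, from 889.8 to 289) and Vegfa (2.97-fold lower, from 1119 to 376) also passed 2-fold. Vegfc, a lymphatic growth factor, was 2.26-fold higher, from 109 to 249.

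**Figure D2:**
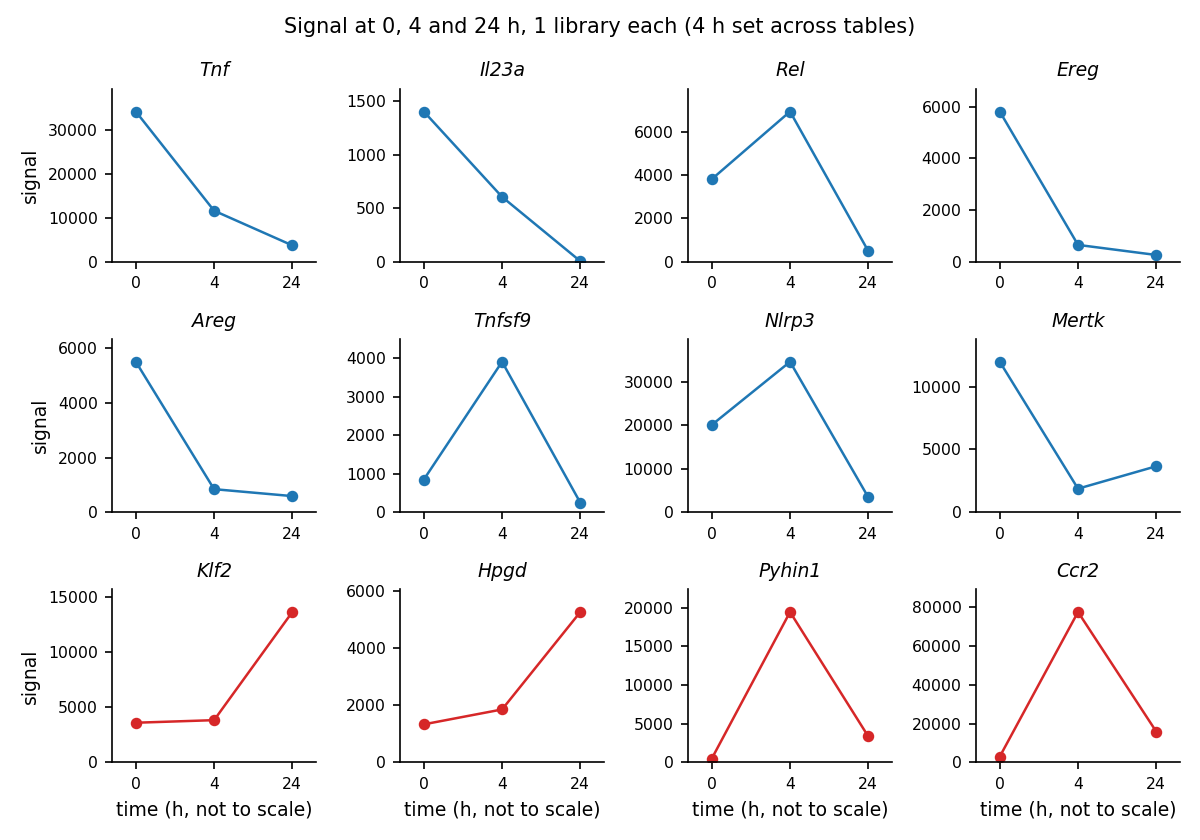
Signal of 12 genes (y axis, normalised read counts from 0) in the single library at 0, 4 and 24 h (x axis, not to scale), with the 4 h value set across tables through the shared 0 h library. The 8 genes in blue were lower and the 4 in red higher at 24 h than at 0 h, and Rel, Tnfsf9, Nlrp3, Pyhin1 and Ccr2 were highest at 4 h.

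Of 22 matrix genes 8 were at least 2-fold lower and 1 higher, with a median of -0.48, and 3 were lower when scaled to the library total. Fn1, encoding fibronectin, stood at 99176, 146909 and 29092, 3.41-fold (3.37 to 3.45) lower. Tgm2, a crosslinking transglutaminase, stood at 48376, 19636 and 12363, 3.91-fold (3.84 to 3.99) lower. Mmp12, the macrophage elastase, was 2.42-fold lower. Of 13 coagulation and fibrinolysis genes 2 were at least 2-fold lower, among them Serpinb2 (2.46-fold lower, from 87.1 to 34.8), and F13a1 was higher. F13a1, which encodes the factor XIII A chain of monocytes, stood at 2185, 108224 and 6949, 3.18-fold (3.03 to 3.34) higher. The 14 complement genes had a median of 0.18, which turned to -0.41 under ribosomal centring. C5ar1, the C5a receptor, stood at 10659.6, 4482 and 4581 (2.33-fold lower), and C4b was 2.79-fold lower, as was Itgax, given below.

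Antigen presentation showed a difference between its parts. Of 13 costimulatory and checkpoint ligands and receptors, 6 were at least 2-fold lower and none was 2-fold higher, with a median of -0.59. Tnfsf9, encoding the 4-1BB ligand and counted among the cytokines too, stood at 845, 3905 and 245, 3.44-fold (3.0 to 3.99) lower. Icosl, the ICOS ligand, stood at 2399, 2288 and 870.2, 2.75-fold (2.55 to 2.98) lower. Cd83 stood at 24733, 26618 and 9045, 2.73-fold (2.67 to 2.8) lower. The other members past 2-fold were Cd80 (2.65-fold lower), Cd274, encoding PD-L1 (2.33-fold lower), and Pdcd1lg2, encoding PD-L2 (2.02-fold lower), whereas Cd86 had a log2 ratio of -0.35 and Cd40 of 0.18. By contrast none of the 12 MHC class II presentation genes was past 2-fold, and all lay between -0.54 and 0.74. Cd74, the invariant chain, stood at 79632, 64748 and 70475, and Ctss, the cathepsin that trims it, at 150456, 95963 and 165304. Of 19 class I and immunoproteasome genes 1 was past 2-fold, H2-Q6, at 1737 and 492, a member of a family of close copies whose counts are uncertain.

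Most adhesion and uptake receptors lay within 2-fold. Icam1, the ligand of LFA-1, stood at 14218, 20757 and 4602 (3.09-fold lower, 2.99 to 3.19), and Vcam1 was 3.48-fold lower at low levels. Itgax, encoding CD11c, stood at 52967, 17622 and 25832, just past 2-fold (2.05-fold lower, 2.02 to 2.08). These were the 3 members at least 2-fold lower among 22 integrin and adhesion genes, of which 1 was higher. Over all genes 8.54% were lower and 5.25% higher, so these counts are near those shares. After length centring 2 were lower and 1 higher. Among 14 receptors and bridging proteins for apoptotic cells only Mertk was past 2-fold, at 11997, 1869 and 3661 (3.28-fold lower, 3.16 to 3.4). The scavenger receptors Olr1 (2.66-fold lower, 17366 to 6538) and Colec12 (2.42-fold lower) were the 2 past it of 11. C-type lectins went both ways. Clec4e, encoding Mincle, stood at 10836, 67033 and 5265 (2.06-fold lower) and Clec1b was 4.04-fold lower, whereas Clec10a (2.43-fold higher), Clec4a1 (2.2-fold higher) and Cd209a (2.02-fold higher) were higher, 3 and 2 of 15, which became 1 and 2 after length centring.

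**Figure D3:**
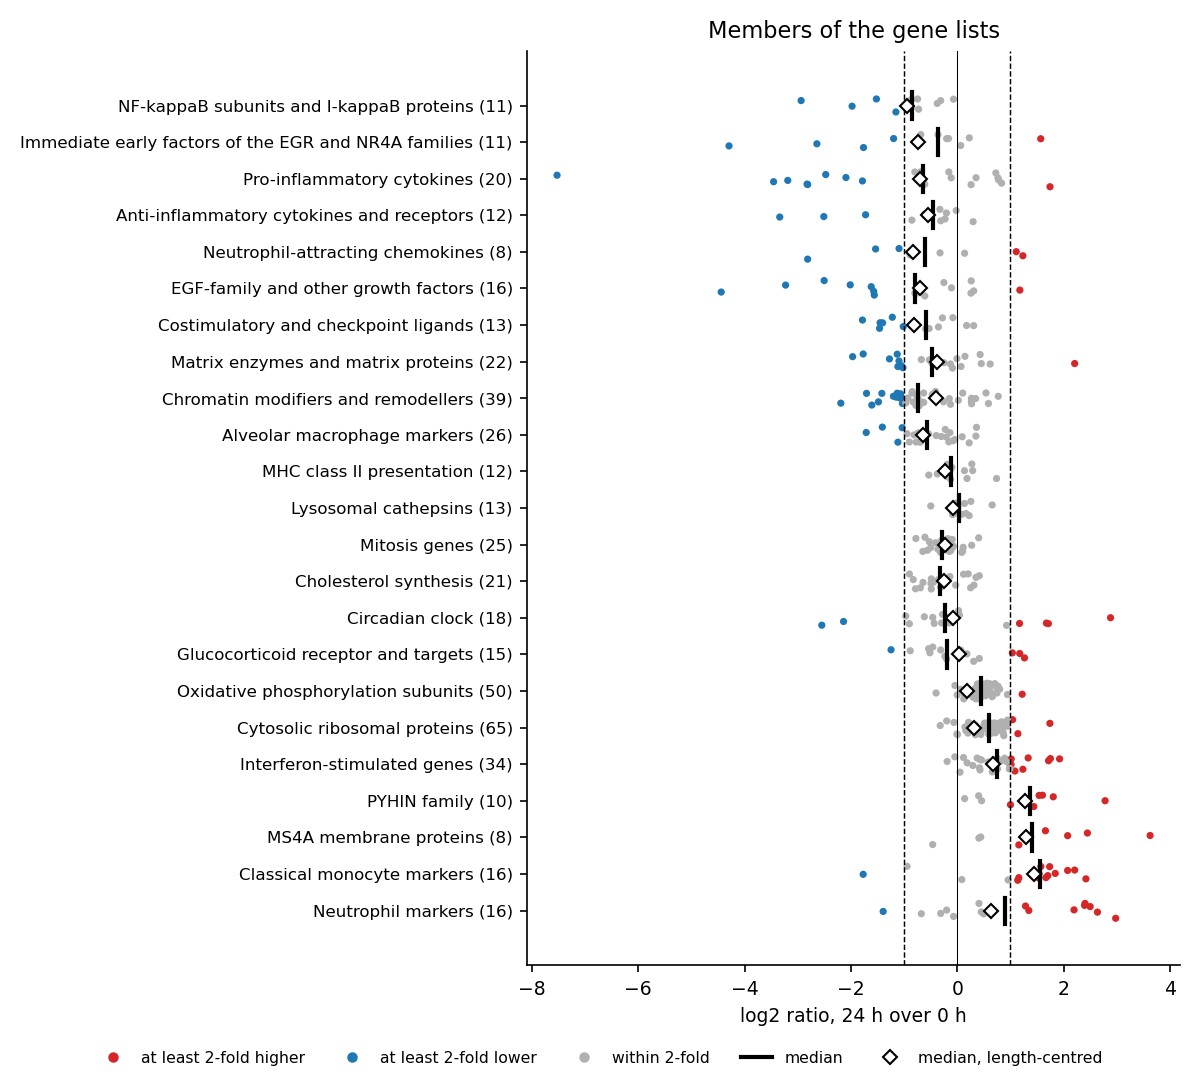
Log2 ratios of 24 h over 0 h (x axis) for the measured members of 23 gene lists, with the number measured in parentheses. Points are members, coloured where past 2-fold, bars are medians and diamonds are medians after centring on genes of like exonic length. The highest medians of those shown are those of the classical monocyte, MS4A and PYHIN lists, at 1.56, 1.41 and 1.36. The MS4A median rests on the 8 of 13 listed genes that had a row.

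On the higher side, the largest ratios included transcripts known from red cells, monocytes, neutrophils and lymphocytes. Beta-s, an adult beta-globin gene (chromosome 7, 103826523 to 103827928), stood at 53.1 at 0 h, 1137 at 4 h and 1907 at 24 h, 35.3-fold (27.1 to 48.6) higher. Among the rest of the 15 highest, Rgs18, a regulator of G protein signalling in blood cells, stood at 48.8, 902 and 322 (6.48-fold higher, 4.84 to 9.18). Saa3, an acute phase protein, stood at 88.1, 5564 and 452 (5.08-fold higher, 4.06 to 6.56), and BC147527 at 108, 564 and 511 (4.69-fold higher). Hpgd, the dehydrogenase that inactivates prostaglandin E2 (chromosome 8, 56294552 to 56321046), was, like Beta-s, highest at 24 h, with 1333, 1855 and 5274, 3.96-fold (3.72 to 4.21) higher.

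Of 16 classical monocyte markers 12 were at least 2-fold higher and 1 lower, with a median of 1.56. Their summed signal was nevertheless lower, 822883 at 0 h and 501095 at 24 h, and was mostly that of the members below 0, Chi3l3, also an alveolar macrophage marker and now called Chil3 (683483, 233944 and 355436), and Fn1. Ccr2, the receptor that brings monocytes out of the bone marrow (chromosome 9, 124102183 to 124109140), stood at 2959, 77536 and 15846, 5.35-fold (5.14 to 5.58) higher. Vcan, encoding versican, stood at 280.3, 61596 and 1299.7, 4.62-fold (4.06 to 5.31) higher. Ms4a4c stood at 1034, 17658 and 4365, 4.22-fold (3.94 to 4.53) higher. All 3 were far above both times at 4 h. Of the 16 markers 14 were above both times there, beside 38.1% of all genes. Plac8 (9829, 49732 and 32793), S100a4 (3677, 17263 and 10939.7) and the acute phase gene Hp (2319, 32516 and 8323) showed the same order of times. Crip1, a LIM domain protein, stood at 4261, 6619 and 10660.0, and D4Wsu53e at 5508, 7264 and 15648. MS4A genes encode membrane proteins with 4 spans. Of 13 listed, 8 had a row and 5 were at least 2-fold higher, among them Ms4a4b at 29.7, 753 and 167. A row needs a mean of about 10. Ms4a1, with 1 read at 0 h and 26 at 24 h, therefore has a row only through its 24 h level. Ms4a8a, of the same family, stood at 8470.1, 5987 and 6151, a log2 ratio of -0.46.

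PYHIN genes encode interferon-induced sensors and binders of DNA in a cluster on chromosome 1. All 10 had a ratio above 0 and 7 were at least 2-fold higher, with a median of 1.36. Pyhin1 (chromosome 1, 173630859 to 173647928) stood at 485, 19423 and 3341, 6.87-fold (6.25 to 7.61) higher. Mnda stood at 297, 6349.7 and 905, 3.04-fold (2.66 to 3.49) higher, and Pydc3 was 3.5-fold higher at low levels. Aim2, the sensor that assembles an inflammasome on cytosolic DNA, differed least, at 2221, 2942 and 2446. These genes are close copies, so the split of reads among them is uncertain. Under ribosomal centring the median was 0.77 and 3 were higher.

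Other interferon-stimulated genes were higher to a smaller degree, with 8 of 34 at least 2-fold higher, none lower, 32 above 0 and a median of 0.76. The count higher was 14 under the library total and 3 under ribosomal centring, where the median was 0.16. Rtp4, a receptor transport protein, stood at 336, 3100.4 and 1277, 3.8-fold (3.36 to 4.32) higher. Mx2, a dynamin-like antiviral GTPase, stood at 134, 3150.0 and 453, 3.37-fold (2.78 to 4.15) higher. Usp18, which removes ISG15 and restrains interferon signalling, stood at 223, 2906 and 736. Ifitm3, an antiviral membrane protein, stood at 6507, 30987 and 17323, 2.66-fold (2.59 to 2.74) higher. All 34 interferon-stimulated genes, like all 10 PYHIN genes, were above both other times at 4 h, which 38.1% of all genes were. The guanylate-binding and immunity-related GTPases showed no common direction, with a median of 0.02 that turned to -0.57 under ribosomal centring. Gbp9 was 2.52-fold higher and Gbp5 2.09-fold lower. Irf7, the amplifier of type I interferon production, was the only one of 9 IRF genes past 2-fold, at 2936, 13589 and 5931. Stat4 was the one past it among 14 STAT and SOCS genes, at 60.5 and 135.

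Several regulators reached their highest level of the 3 times at 24 h. Klf2, a factor known to restrain inflammatory gene expression in myeloid cells (chromosome 8, 72319062 to 72321654), stood at 3590.0, 3824 and 13628, 3.8-fold (3.66 to 3.94) higher, while Klf7 was 6.22-fold lower, from 222 to 34.8. These were the members past 2-fold of 11 Kruppel-like factors. Tsc22d3, which encodes the glucocorticoid-induced leucine zipper, stood at 6360.3, 2599.7 and 14364, 2.26-fold (2.19 to 2.33) higher. Ddit4, an inhibitor of mTORC1, stood at 605, 482 and 1242, 2.05-fold (1.86 to 2.27) higher. Cebpd, the third higher member of 15 genes of the glucocorticoid list, was instead highest at 4 h, at 699.7, 2387 and 1683. The list had a median of -0.20. Fkbp5, a classical target, had a log2 ratio of -0.23, and Zbtb16 was 2.37-fold lower.

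Of 21 listed clock genes 18 had a row, and 12 of these lay within 2-fold. At least 2-fold higher were 4 and lower 2, beside 5.25% and 8.54% of all genes. Tef, a PAR-domain factor driven by the clock, stood at 380.1, 601 and 1249.7, 3.28-fold (2.92 to 3.71) higher. Its relative Dbp had 7 reads at 0 h and 65 at 24 h (7.38-fold higher, 3.78 to 21.3), and Gm129, the earlier symbol of Ciart, stood at 17, 39.7 and 56.5. Both rest on few reads, and Dbp has a row only through its 24 h level, since a row needs a mean of about 10. Nr1d2, encoding REV-ERB-beta, was 2.25-fold higher, from 463 to 1044. In the other direction, Bhlhe40, a repressor of CLOCK and BMAL1 and a factor of macrophage activation, stood at 23218, 10416 and 5271, 4.4-fold (4.28 to 4.54) lower, and Rora was 5.85-fold lower, from 165 to 27.3. Core members Arntl (-0.62), Clock (-0.43), Per1 (-0.46) and Nr1d1 (0.02) had log2 ratios within 2-fold. The clock time of each collection is not given in the labels.

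Of 12 leukotriene and resolvin genes 3 were at least 2-fold higher and 1 lower, beside 5.25% and 8.54% of all genes. These counts became 1 and 3 under ribosomal centring, 2 and 1 after length centring and 3 and 0 under the library total. The median of 0.32 turned to -0.28 under ribosomal centring. Of 14 prostaglandin genes Hpgd was the only one past 2-fold. The higher members of the first list were receptors: Cysltr1, for cysteinyl leukotrienes, at 145, 1315 and 457 (3.13-fold higher, 2.59 to 3.82), Ltb4r1, for leukotriene B4, at 327, 1237 and 969 (2.96-fold higher, 2.61 to 3.38), and Gpr18, a receptor for a resolvin (2.03-fold higher). Alox5, the first enzyme of leukotriene synthesis, stood at 9785, 467 and 4770.1, 2.05-fold (1.98 to 2.12) lower. Pla2g7, which breaks down platelet-activating factor, stood at 2969, 14908 and 7889, 2.66-fold (2.55 to 2.77) higher. None of the 21 cholesterol synthesis genes was past 2-fold, but 15 were below 0, with a median of -0.32. Srebf2, the transcription factor of this pathway, stood at 5267, 5690.2 and 3055. Abca1, the cholesterol exporter, was 2.71-fold (2.56 to 2.87) lower, from 4169 to 1539, and Apoc2 was 2.14-fold higher. Of 25 fatty acid genes 1 was past 2-fold, the coactivator Ppargc1b (2.3-fold lower).

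Other metabolic and stress lists had few members past 2-fold. Irg1, which encodes the itaconate-producing enzyme now called Acod1, stood at 1107, 14762 and 283, 3.91-fold (3.44 to 4.47) lower, and the arginine transporter Slc7a1 was 2.39-fold lower. Hk2, an inducible hexokinase, stood at 3220.5, 4794 and 1565, 2.06-fold (1.94 to 2.19) lower, and was one of 2 lower of 23 glycolysis and HIF1A genes, beside Adm, at 24 and 3 reads. Slc2a3 was 2.11-fold higher at low levels. The antioxidant genes Srxn1 (3560.3, 1591 and 913), Txnrd1 (11711, 17748 and 3843) and Slc7a11 (1567, 15987 and 579) were lower, and were the 3 of 20 NRF2 target and antioxidant genes past 2-fold. No gene of the tricarboxylic acid cycle (23 measured) was past 2-fold. The heat shock genes Hspa1b (1057 to 2646), Hspa1a (1059.7 to 2424) and Dnaja1 (723 to 1537) were higher, 2.5-fold, 2.29-fold and 2.12-fold, the first pair being near-identical copies. None of the 26 unfolded protein response genes was past 2-fold.

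Survival genes past 2-fold included both directions. Of 19 BCL2 family and survival genes 2 were at least 2-fold higher and 2 lower, beside 5.25% and 8.54% of all genes. Their median of -0.05 turned to 0.10 when scaled to the library total. Pmaip1, encoding the pro-apoptotic NOXA, stood at 3069.7, 11449.8 and 8402, 2.74-fold (2.62 to 2.86) higher, and Bbc3, encoding PUMA, was 2.07-fold higher, whereas Bcl2l11, encoding BIM, stood at 6135, 4676 and 1776, 3.45-fold (3.28 to 3.64) lower. Cflar, an inhibitor of caspase-8, was 3.15-fold (3.0 to 3.31) lower, from 6465 to 2053. Pro-apoptotic members therefore stood on both sides. Of 19 D-type cyclin, CDK inhibitor and p53 target genes 3 were at least 2-fold lower and none was 2-fold higher. Ccnd2, a D-type cyclin, stood at 9970.5, 8518 and 2661, 3.75-fold (3.59 to 3.91) lower, and Cdk6, its partner kinase, at 1003, 841 and 183, 5.47-fold (4.7 to 6.44) lower. None of 25 mitosis genes was past 2-fold, and 20 were below 0 with a median of -0.29. Mki67, the proliferation marker, stood at 2786, 3654 and 1936. Lysosomal genes differed little. All 13 cathepsins lay between log2 ratios of -0.50 and 0.66, with Ctsd at 221827 at 0 h, 26838 at 4 h and 208807 at 24 h. Of 29 other lysosomal genes only Npc1, the cholesterol transporter, was past 2-fold (2.4-fold lower).

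Ratios across genes followed transcript length. Genes with an exonic length under 1 kb had a median log2 ratio of 0.45, those of 1 to 2 kb 0.33, of 2 to 4 kb 0.13, of 4 to 6 kb -0.05, of 6 to 10 kb -0.20 and of 10 kb or more -0.46. The share at least 2-fold higher went from 21.2% to 1.87% between the ends of this range and the share at least 2-fold lower from 8.43% to 23%. The same order of medians held among genes with a mean of at least 100, from 0.46 to -0.48. Genes spanning over 100 kb of the genome had a median of -0.41 and those under 5 kb 0.31. The lengths are unions of GENCODE M21 exons, genes are not independent replicates, and what the slope stems from was not tested.

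**Figure D4:**
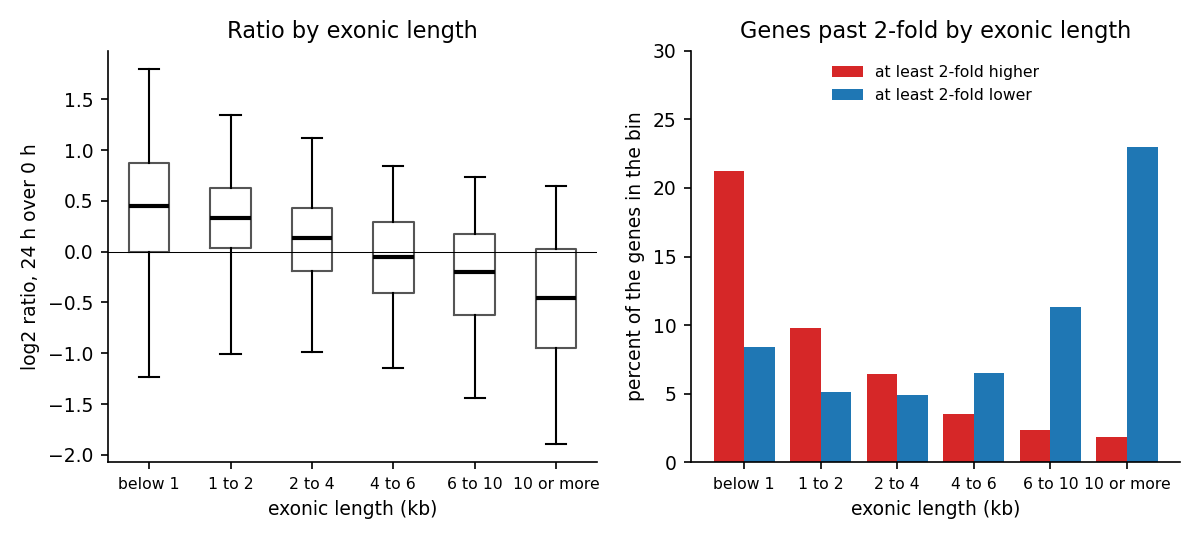
Left, log2 ratio of 24 h over 0 h by exonic length, with the box from the 25th to the 75th percentile, the line at the median and whiskers from the 5th to the 95th percentile. Right, percent of the genes in each length class that were at least 2-fold higher or lower. Medians go from 0.45 in the shortest class to -0.46 in the longest.

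Groups of long or short genes have to be read beside that slope. Of 39 chromatin modifiers and remodellers 12 were at least 2-fold lower, none was higher and the median was -0.74. Subtracting the median of genes of like exonic length moved the median to -0.40 and left 4 at least 2-fold lower, and scaling to the library total left 6. Crebbp, the acetyltransferase CBP, stood at 1602, 2437 and 350.3, 4.56-fold (4.08 to 5.14) lower. Kdm6b, an H3K27 demethylase induced by LPS, stood at 14117, 32215 and 4324, 3.26-fold (3.16 to 3.38) lower, and Mll1, the methyltransferase now called Kmt2a, was 3.05-fold lower. At the other end, 61 of 65 ribosomal protein genes were above 0 with a median of 0.60, which became 0.32 after length centring and is 0 by construction under ribosomal centring. For the 50 subunits of oxidative phosphorylation the median of 0.45 became 0.19 after length centring and -0.15 under ribosomal centring, with 1 gene past 2-fold. Medians of the NF-kappaB (-0.94), growth factor (-0.71), costimulatory (-0.82), PYHIN (1.28) and classical monocyte (1.45) lists kept their sign under length centring.

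The 4 h level divided the genes past 2-fold. Of the 581 higher genes that also had a 4 h level, 272 (46.8%) were above both other times at 4 h, 259 (44.6%) lay between and 50 (8.61%) were below both. Of the 1049 lower genes, 388 (37.0%) were above both times at 4 h, 416 (39.7%) lay between and 245 (23.4%) were below both. Genes within 2-fold were above both times at 4 h in 37.7% and below both in 45.7%. These shares rest on levels set across tables and share the 0 h and 24 h libraries with the comparison itself.

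**Figure D5:**
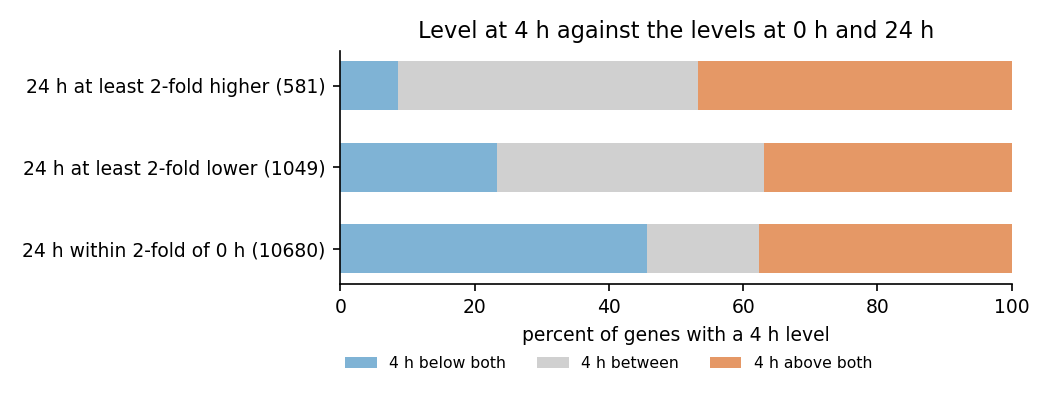
Percent of genes (x axis) whose 4 h level lay below, between or above the 0 h and 24 h levels, for genes at least 2-fold higher, at least 2-fold lower or within 2-fold at 24 h. Of the higher genes 46.8% were above both times at 4 h, and of the lower genes 37.0%.

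Markers of resident alveolar macrophages were lower in part. Of 26 alveolar macrophage markers 4 were at least 2-fold lower, none was higher, 22 were below 0 and the median was -0.57. Beside Mertk, Olr1 and Itgax this took in Spp1, encoding osteopontin, at 19356, 8887 and 8929. At 4 h 23 of the 26 markers were below both other times, beside 42% of all genes. Krt19, for instance, stood at 11847, 89.4 and 10133, and Cidec, of lipid droplets, at 6352, 204 and 4106. Both had a trough at 4 h and stood below their 0 h level at 24 h, Cidec further below than Krt19. Marco (13816, 17103 and 17618) and Car4 (23993, 37444 and 30833) had ratios above 0. The defining markers Siglec5, the tables' name for Siglecf, at 12504, 871 and 7118, and Pparg, at 6785, 1482 and 5508, were present in both libraries. Interstitial macrophage markers had 2 of 20 higher, Ccr2 and Pf4, and a median of 0.40 that turned to -0.20 under ribosomal centring.

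Transcripts of other cell types moved with the comparison, and their part in the results above was not tested. Of 20 neutrophil markers 16 had a row and 8 were at least 2-fold higher, with a summed signal of 21406 at 0 h and 16256 at 24 h that was mostly Trem1, a receptor monocytes and macrophages also carry (14502 and 5519.8, 2.63-fold lower). Lcn2 stood at 179, 3889 and 1122 (6.22-fold higher, 5.32 to 7.39), S100a9 at 305, 5378 and 1617 (5.29-fold higher, 4.68 to 6.03) and Retnlg at 37.2, 738 and 199.7. The granule genes Ltf, at 17 and 101, and Camp, at 3 and 34 reads, were also higher, while Elane, Mpo, Stfa2 and Ly6g had no row. A row needs a mean of about 10, so a gene near 0 at 0 h is listed only if it was higher at 24 h, and counts of such rare genes carry no weight. Of 13 B and plasma cell markers 6 had a row, summing to 95.6 and 396, with Cd79b at 43.5, 86.5 and 213 (4.8-fold higher, 3.49 to 7.0). T, NK and innate lymphoid markers had 10 of 18 rows, summing to 296 and 394, with Gzma at 8 and 85 reads, Cd3d at 1 and 22 and Cd4 at 146 and 25. Dendritic cell markers had 14 of 15 rows, summing to 3394 and 6505. Fscn1 (3.63-fold higher, 2.92 to 4.62, from 102 to 373) and Ccr7 (3.42-fold higher, 2.86 to 4.14, from 157 to 539.6), both of mature dendritic cells, led the 6 that were higher, while Xcr1 and Clec9a, of the cross-presenting subset, stood at 103 and 72.5 and at 294 and 264.

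Markers of structural cells went both ways. Epithelial markers summed to 40294 and 37451, mostly Lyz1 and surfactant genes, with none of 17 at least 2-fold higher. How reads were split between Lyz1 and the reporter locus Lyz2 was not tested, so how much of this sum is epithelial is uncertain. Sftpc, the surfactant protein C of type II cells, stood at 8888, 6792 and 11059, while Epcam (1084, 177 and 383) and Cdh1 (2477, 793 and 1050.1) were lower, 2.82-fold and 2.36-fold. Among 14 endothelial, fibroblast and smooth muscle markers, Cldn5, a tight junction protein of endothelium, was 4.53-fold (3.47 to 6.15) higher, from 63.7 to 292, and Vwf was 2.13-fold lower. Alas2, the erythroid enzyme of heme synthesis, stood at 5.31, 125 and 121 (19.3-fold higher, 9.48 to 71.1).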

How the data were processed

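Macrophages of 3 time points were profiled by RNA sequencing, with 1 library each. The authors deposited tables of 2 time points with, per the file headers, a signal for each library and a log2 fold change, and the submitters' processing notes name DESeq2 and the genome build mm10. How reads were aligned and assigned to genes is not given in the sources used here. The signals proved to be whole reads divided by 1 size factor per library (100% of values within 0.001 of a whole read). The deposited log2 fold changes were used only as an alternative.

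The first signal column, headed 4 h, was checked against the other tables and taken as 0 h. Of 12638 entries 20 repeats were dropped. The log2 ratio of 24 h over 0 h was taken after adding 1. No test was run. Intervals are Clopper-Pearson at 95%. Exonic lengths came from GENCODE M21 for 12473 genes. Of 11283 symbols checked, 139 lay elsewhere than RefSeq places that symbol and were left out of lists and promoters. The 80 lists hold 1443 entries: 1309 matched under their own symbol, 25 under a synonym with the same location, and 109 had no match. Members and lists were chosen with earlier results of these data known.

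Genes named are the 15 highest and 15 lowest ratios with a mean of at least 100, the 10 highest and lowest with a mean of at least 5000, and up to 3 members furthest in each direction of a described list, or its most abundant. The sorting genes were added, and sex-linked and predicted genes kept apart. Further members of the lists, such as Rela, Il1b, Tlr4, Cd86, Aim2, Chi3l3, Srebf2, Fkbp5 and core clock genes, were named after their values were seen. Some genes that the rule names are not reported here. Alternatives were library total, edgeR TMM factors, ribosomal centring, other pseudocounts, a mean of at least 100, other folds and, chosen after seeing the data, centring within 20 bins of exonic length. The ratio and interval code was tested on simulated data. Python 3.11.15, numpy 2.4.6, pandas 2.3.3, scipy 1.17.1, matplotlib 3.10.9, R 4.3.3 and edgeR 4.0.16 were used.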

Additional observations from a re-analysis of the deposited data

How the results depend on the processing

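With 1 library per side, differences between animals, sorts and library preparations enter every value, and depth limits genes with few reads. The 663 higher genes became 203 under ribosomal centring, 286 with a mean of at least 100, 1820 past 1.5-fold, 85 past 4-fold, 68 by the authors' deposited log2 fold change and 242 where the whole counting interval lay past 2-fold. The 1077 lower genes became 3196 under ribosomal centring, 2298 past 1.5-fold, 209 past 4-fold, 270 by the authors' deposited log2 fold change and 665 by the counting interval. The median over all genes moved from 0.02 to 0.171 under the library total and to -0.58 under ribosomal centring, and the number of the 80 lists with a median above 0 from 36 to 51 and 9. By construction, ribosomal centring subtracts a constant. The other settings for these counts stayed within 1.5 times, including 610 and 877 after length centring and 475 and 908 with a pseudocount of 10. Of 212 named genes past 2-fold, 13 were not past it under the library total, 43 under ribosomal centring, 35 after length centring, 9 with a pseudocount of 10 and 0 with TMM. The difference between genes over 100 kb and under 5 kb, -0.723, ranged from -0.808 to -0.685, and the kappaB share of the genes at least 4-fold lower, 10.6%, from 8.13% to 12.1%. No named gene past 2-fold turned its sign under these settings. No paired analysis was possible because each time point has 1 library.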

Other observations

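Long noncoding RNAs went both ways. Malat1, retained in the nucleus, stood at 13759 at 0 h, 18017 at 4 h and 4979 at 24 h (2.76-fold lower, 2.68 to 2.85), and Kcnq1ot1, transcribed antisense within an imprinted gene, at 264, 417 and 96.1. The small nucleolar RNA hosts Gas5 (1611, 3675 and 3504) and Snhg5 (280.3, 624 and 707) were higher, 2.17-fold and 2.52-fold. Of the 9 measured, 2 were higher and 2 lower, and the median of 0.58 turned to -0.01 under ribosomal centring.

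Of 22 autophagy genes 2 were at least 2-fold lower, a share near that of all genes, and none higher. Sqstm1, encoding p62, stood at 25741, 11468 and 10338 (2.49-fold lower, 2.43 to 2.55), and Optn, encoding optineurin, at 756, 433 and 236 (3.19-fold lower, 2.77 to 3.71). Of 16 genes of extracellular nucleotide and adenosine signalling 3 were at least 2-fold lower and 1 higher, beside 8.54% and 5.25% of all genes. The lower members were Entpd1, encoding CD39 (3363, 1960.1 and 1634), Nt5e, encoding CD73 (865, 68.1 and 388), and P2ry2, a receptor for ATP and UTP (1087, 545 and 438). P2ry1, an ADP receptor, was higher, with 30 reads at 0 h and 103 at 24 h. Scaled to the library total 1 was lower and 2 higher, and after length centring 1 and 1. Entpd1 and Nt5e were not past 2-fold after length centring. Among lineage factors, Runx1 stood at 7753, 4468 and 3359 (2.31-fold lower, 2.22 to 2.4) and Mef2d at 2086, 1543 and 762 (2.74-fold lower, 2.52 to 2.98), while Maf, encoding c-MAF, was higher, at 165, 1059 and 406 (2.46-fold higher, 2.05 to 2.98). Of 27 actin regulators 3 were at least 2-fold lower and 1 higher, and after length centring 1 was lower. Myh9, a nonmuscle myosin, stood at 54313, 37481 and 22656 and Flna, encoding filamin A, at 91446, 82228 and 44894, and neither was past 2-fold after length centring.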
